A study of Drosophila melanogaster with 4 samples.

Results

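The epidermal growth factor receptor (EGFR) pathway genes described here were the receptor gene Egfr, the ligand genes spi, vn and Krn, the protease genes rho, ru and stet, the transcription factor gene pnt and the inhibitor genes aos and sty. These 10 genes, of 13968 protein-coding genes on the nuclear chromosome arms, were chosen by name, and their peaks were collected by position. A peak belonged to a gene when the gene held the protein-coding transcription start site (TSS) nearest to the peak's summit, or when the summit lay in the gene body or within 2 kb upstream of it. By this rule 17 of the 5203 peaks of the series-level list that the submitters named conservative belonged to the pathway genes.

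The binding map came from whole Drosophila melanogaster embryos aged 0 to 24 h of a Dll-GFP strain, whose label describes an insertion that targets Dll. Dll encodes the homeodomain transcription factor Distal-less, and the embryos carried it fused to eGFP, which was precipitated from sonicated chromatin of 200 to 800 bp with an anti-GFP antibody. All 4 samples were biological replicates of 1 group, with no untagged or second condition among them, and the control used for peak calling was not analysed here. Whole embryos of mixed age pool every cell type, so neither the cells nor the hours in which a site was occupied can be told apart.

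In flies the EGFR is a single receptor tyrosine kinase that acts through Ras, Raf and MAP kinase. Spitz and Keren are made as membrane-bound precursors that rhomboid proteases cut to release the active ligand, whereas Vein is secreted directly. The pathway ends at the ETS activator Pointed and is damped by Argos, which sequesters Spitz outside the cell, and by Sprouty inside it. In the developing leg the pathway patterns the tip of the proximal-distal axis, where Dll is also required.

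A conservative summit was found at 8 of the 10 pathway genes, against 40.0% of all protein-coding genes. The 2 without one were rho and aos. The pathway genes are long, from 4719 to 55937 bp with a median of 15460 bp, against a median of 2164.5 bp over all protein-coding genes. Among the 3662 protein-coding genes at least as long as the shortest of them, Krn, 51.0% held a conservative summit, and the part of length in the count of 8 was not tested further.

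Promoter summits, those between 500 bp upstream and 100 bp downstream of a protein-coding TSS, made up 9 of the 17, and the other 8 were intronic. Promoter summits were found at 5 pathway genes, Egfr, spi, vn, Krn and pnt, against 35.9% of all genes. Each of those 5 held a summit in a promoter of its own, against 31.1% of all genes and 38.1% of genes at least as long as Krn. Of the 17 annotated TSSs of the pathway genes, 6 had a conservative summit in their promoter, against 26.7% of all protein-coding TSSs. Intronic summits were found at 5 pathway genes, spi, ru, stet, pnt and sty, against 3.87% of all genes and 9.26% of genes at least as long as Krn. That count depended on how far a promoter was taken to reach. When promoters reached 1000 bp to either side of the TSS it was 3, against 2.08% of all genes, because the summits in the introns of spi and stet lay within 1000 bp of a TSS.

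**Figure D1:**
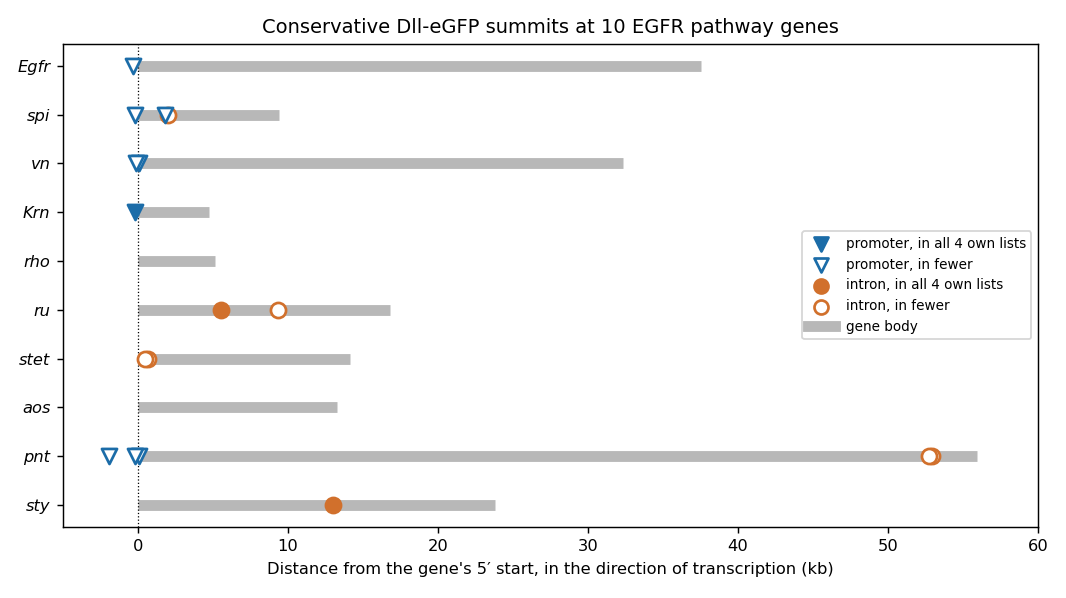
Positions of the 17 conservative summits along the 10 pathway genes, as the distance in kb from each gene's 5′ start in the direction of transcription. Grey bars are gene bodies, triangles are promoter summits and circles are intronic summits. Filled symbols mark the 3 peaks, at Krn, ru and sty, that overlapped a peak in all 4 own lists. No symbol stands at rho or aos.

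Support from the single replicates differed between the pathway genes. Each replicate has an own list of peaks that passed the submitters' threshold, a score of at least 830, which is a global irreproducible discovery rate (IDR) of 0.01. Those own lists held peaks at 7, 6, 3 and 4 of the 10 pathway genes in replicates 1 to 4, against 32.1%, 33.1%, 25.3% and 27.8% of all genes. The 3 genes Krn, ru and sty had a peak in every own list, against 21.9% of all genes and 27.2% of genes at least as long as Krn. The share of 3 in 10 was close to both.

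Among the 17 conservative peaks, 3 were overlapped by a peak of every own list, against 47.7% of all conservative peaks. By class these were 1 of the 9 promoter peaks, against 54.7% of all conservative promoter peaks, and 2 of the 8 intronic peaks, against 20.0% of all conservative intronic peaks. No own list overlapped 3 of the 17, all at pnt, against 16.6% of all conservative peaks. The peaks of the pathway genes were also weak for their list. Ranked by the deposited signal, 13 of the 17 lay in the lower 50% of the conservative list, and the median rank of the 17 was 69.2% from the top. Of the 17, 10 overlapped another peak of the same gene, and the share of all conservative peaks that overlap another was not counted. The weaker peak of each such pair ranked between 93.8% and 98.9% from the top, and these rows add to both values.

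**Figure D2:**
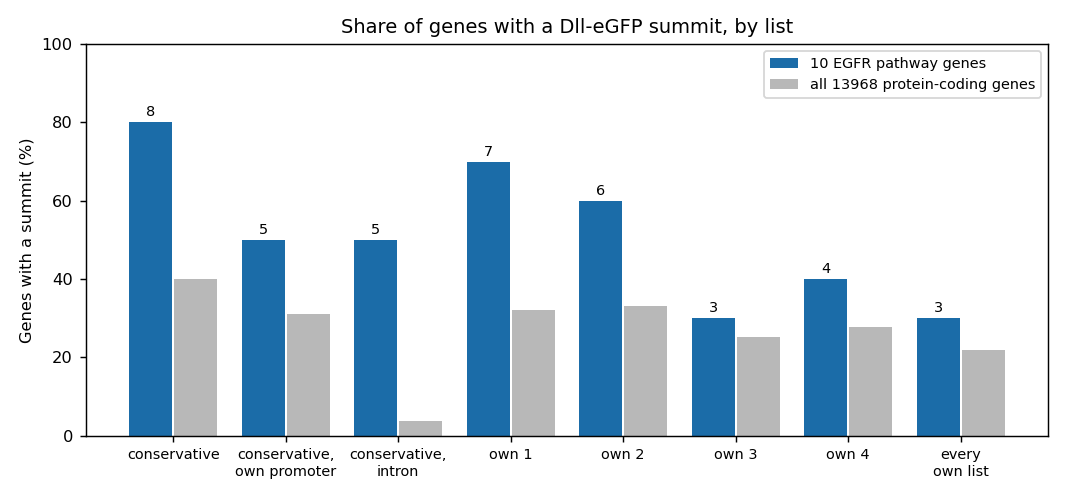
Percent of the 10 EGFR pathway genes (blue, left bar of each pair, with the number of genes above it) and of all 13968 protein-coding genes (grey) with a summit, in the conservative list as a whole, at the gene's own promoter and in an intron, in the own lists of replicates 1 to 4 and in every own list. The bars lie furthest apart for conservative intronic summits, 5 genes against 3.87%, and closest for the own list of replicate 3, 3 genes against 25.3%.

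Among the ligand genes, Krn carried the strongest peak of the pathway. Krn encodes Keren, a ligand related to Spitz, and lies at chr3L:17649562-17654280 on the minus strand of the dm6 build. Its conservative peak spanned chr3L:17654070-17654734 and ranked 63 of 5203, 1.21% from the top. The 101 bases around this summit, at chr3L:17654404-17654504, are shown because no other summit of the pathway ranked as high in the conservative list or in any own list. They are written on the plus strand from RefSeq release 6 of the genome, and the capitals mark the summit base and 5 bases on each side.
Krn promoter summit: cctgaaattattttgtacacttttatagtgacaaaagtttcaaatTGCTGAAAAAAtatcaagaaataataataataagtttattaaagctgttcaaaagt
The window is rich in A and T, with 22 of 101 bases G or C.

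The Krn summit was shared with neighbouring genes. It lay 174 bp upstream of the Krn TSS, which is also the TSS of Ndfip, and 163 bp from the TSS of CG7484, and the TSSs of Krn and CG7484 are 337 bp apart. The nearest TSS was that of CG7484 in the conservative list and in replicate 2, and that shared by Krn and Ndfip in replicates 1, 3 and 4. The summit can therefore not be given to Krn alone. In the own lists the peak ranked 3.19%, 1.47%, 2.18% and 2.12% from the top in replicates 1 to 4, a mean of 2.24% ± 0.71 (SD, n = 4). The 4 own summits lay within 27 bp of each other. In replicate 4 a second summit of the same region, 9 bp from the TSS of CG7484, ranked 94.2% from the top.

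The gene spi encodes Spitz, the main EGFR ligand of the embryo, and had 3 conservative summits. It lies at chr2L:19567900-19577315 on the minus strand with 3 annotated TSSs. The strongest of its peaks, chr2L:19577190-19577785, had its summit 173 bp upstream of the first TSS and ranked 43.3% from the top. That promoter is shared with msb1l, whose TSS is 386 bp from the first TSS of spi. The own lists of replicates 1, 2 and 4 held it at 51.2%, 74.8% and 73.4% from the top, a mean of 66.5% ± 13.3 (SD, n = 3). Replicate 3 held a candidate there with a score of 623, under the threshold.

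The other 2 summits of spi formed a pair of overlapping peaks at an internal TSS, 248 bp and 49 bp downstream of it. The first counted as intronic and the second as a promoter summit. They ranked 68.3% and 96.6% from the top, and each was overlapped by the same own peaks, at 87.1% in replicate 2 and 66.8% in replicate 4. The candidates over this pair scored 589, 833, 813 and 1000 in replicates 1 to 4, so replicates 2 and 4 passed the threshold of 830. The windows of the upstream and the intronic summit, at chr2L:19577438-19577538 and chr2L:19575289-19575389, are set side by side because they differ in base composition, with capitals as for Krn.
spi upstream promoter summit: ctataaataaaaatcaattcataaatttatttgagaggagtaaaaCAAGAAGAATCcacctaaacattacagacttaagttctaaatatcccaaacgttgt
spi intronic summit: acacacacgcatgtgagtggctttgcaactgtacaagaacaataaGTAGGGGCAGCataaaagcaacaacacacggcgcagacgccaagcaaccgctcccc
The upstream window holds 27 G or C bases of 101 and the intronic window 53.

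The gene vn encodes Vein, a secreted neuregulin-like ligand, and had 1 promoter region with 2 overlapping conservative peaks. It lies at chr3L:5813338-5845664 on the minus strand and has 1 annotated TSS. The summits lay 73 bp downstream and 127 bp upstream of that TSS, at 69.2% and 94.3% from the top. Only replicate 2 held an own peak there, 77.7% from the top. Candidates over the promoter scored 738, 894, 50 and 678 in replicates 1 to 4. Replicates 1 and 4 were thus under the threshold, and replicate 3 far under it.

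Among the rhomboid protease genes, which lie near each other on 3L, ru and stet had intronic summits and rho had none. The gene ru (roughoid) encodes the rhomboid-3 protease that releases EGFR ligands in the eye. It lies at chr3L:1370628-1387437 on the plus strand, inside the body of Ptp61F, which also holds rho. Its stronger peak, chr3L:1376010-1376380, had its summit 5557 bp downstream of the TSS of ru, in an intron of 13569 bp, and ranked 14.1% from the top. This was the strongest intronic peak of the pathway. The own lists of replicates 1 to 4 held it at 19.1%, 27.3%, 24.7% and 27.0%, a mean of 24.5% ± 3.8 (SD, n = 4), with summits within 64 bp.

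The second peak of ru lay in the same intron, 9307 bp from the TSS, at base 2 of the transfer RNA gene tRNA:Glu-CTC-3-1. This tRNA gene spans chr3L:1379934-1380005 on the plus strand, and 2 more copies of tRNA:Glu-CTC follow within 1000 bp. The 72-base gene has 9 exact copies in the genome, so how reads from it were placed bears on this peak and was not tested. The peak ranked 64.9% from the top of the conservative list and passed the threshold in replicate 1 alone, at 90.9% from the top. Candidates over it scored 853, 342, 665 and 210 in replicates 1 to 4. The windows of both ru summits, chr3L:1376135-1376235 and chr3L:1379885-1379985, are printed because they show an intronic summit away from any small RNA gene and one at the start of such a gene. The second window was chosen after its values were seen. Capitals mark the central 11 bases in the first and the 52 bases of the tRNA gene in the second.
ru intronic summit: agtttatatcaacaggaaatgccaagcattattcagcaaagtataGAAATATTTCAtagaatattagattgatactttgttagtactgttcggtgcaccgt
ru summit at the tRNA gene: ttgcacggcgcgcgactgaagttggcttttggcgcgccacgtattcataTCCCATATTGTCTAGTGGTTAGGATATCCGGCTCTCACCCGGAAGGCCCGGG
Each 101-base window as a whole occurs once in the genome.

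The gene stet (rhomboid-2) encodes the protease that acts on EGFR signalling in the germ line. It lies at chr3L:1475438-1489547 on the minus strand. Its conservative summits, 669 bp and 470 bp downstream of a TSS, belonged to 2 overlapping peaks in an intron of 944 bp. They ranked 55.7% and 95.4% from the top. The own lists of replicates 1 and 2 held a peak there, at 70.4% and 89.9%, and candidates scored 1000, 919, 586 and 423 in replicates 1 to 4. The best candidates of stet lay within 120 bp of each other in all 4 replicates, although only replicates 1 and 2 passed the threshold.

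The same intron holds 2 small RNA genes on the plus strand, opposite to stet. These are sncRNA:CR43701 at chr3L:1488739-1488831 and snoRNA:Psi28S-2622, a guide for pseudouridylation of the large ribosomal RNA, at chr3L:1488906-1489045. The stronger summit fell between them, 47 bp from the first and 28 bp from the second. The other lay 32 bp beyond the snoRNA gene. The windows chr3L:1488828-1488928 and chr3L:1489027-1489127 are printed with the bases of these genes in capitals, to show how close the summits stand to them.
stet summit between the small RNA genes: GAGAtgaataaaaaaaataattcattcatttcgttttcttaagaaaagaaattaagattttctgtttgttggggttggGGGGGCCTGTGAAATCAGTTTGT
stet summit beyond the snoRNA gene: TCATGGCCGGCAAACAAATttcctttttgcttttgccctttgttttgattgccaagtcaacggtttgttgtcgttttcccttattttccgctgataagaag
Of the 8 intronic summits of the pathway, 4 lay within 500 bp of a noncoding RNA gene of at most 300 bp, against 7.17% of the 530 conservative intronic summits. Both stet summits are among the 4, with the tRNA summit of ru and the summit of sty, so they stand for 3 places. This distance was examined after the positions were seen.

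The protease gene rho encodes Rhomboid-1, the main activator of Spitz in the embryo, and held no peak in any of the 11 thresholded lists. It lies at chr3L:1463811-1468944 on the plus strand, 76373 bp beyond ru and 6493 bp before stet. Candidates under the threshold were present, with best scores of 217, 367, 148 and 131 in replicates 1 to 4. Of all genes with a candidate, 38.9%, 45.4%, 46.5% and 40.0% had a best score as low or lower in replicates 1 to 4. The best candidates of rho were not at the same place, with a spread of 12323 bp between replicates. A summit at rho was thus not detected at this threshold, which does not show that there is no binding.

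The receptor gene Egfr had 1 conservative summit, in a promoter that it shares with CG30289. Egfr lies at chr2R:21522420-21559977 on the plus strand and has 2 annotated TSSs. The summit lay 363 bp upstream of its first TSS and 209 bp from the TSS of CG30289, the TSSs of the 2 genes being 572 bp apart, and ranked 59.8% from the top. Only replicate 1 held it in its own list, at 62.6%, with a second summit 134 bp upstream of Egfr at 93.1%. Candidates over the conservative peak scored 1000, 312, 801 and 44 in replicates 1 to 4. Replicate 3 was just under the threshold and replicates 2 and 4 far from it. The second TSS of Egfr had no conservative summit.

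The gene pnt encodes Pointed, the ETS transcription factor that carries the EGFR signal into the nucleus, and had 5 conservative summits, the most of any pathway gene. It is also the longest of them, at chr3R:23290231-23346167 on the minus strand with 3 TSSs. A pair of overlapping peaks lay at its first TSS, with summits 47 bp downstream and 184 bp upstream. Another overlapping pair lay in an intron of 1163 bp near the 3′ end of the gene, 1981 bp and 1777 bp downstream of an internal TSS. The fifth summit lay in the 2 kb upstream of pnt but only 23 bp from the TSS of PolE1, a subunit of DNA polymerase epsilon, and was a promoter summit of that gene.

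The peaks of pnt had little replicate support. The 5 ranked between 72.5% and 98.9% from the top, and all had the highest score, 1000, in the conservative list. The intronic pair was overlapped by an own peak of replicate 1, at 89.6%, and the other 3 peaks by no own list. At the intronic pair candidates scored 836, 631, 478 and 53 in replicates 1 to 4. At the summit downstream of the first TSS they scored 159, 320, 412 and 49 in replicates 1 to 4, all far under 830. At the summit in the promoter of PolE1, the highest-ranked of the 5, they scored 749, 708 and 281 in replicates 1 to 3, and replicate 4 had no candidate. Which replicates set the threshold of the conservative list is not stated in the sources used here.

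Of the inhibitor genes, sty had a peak in every replicate and aos in none. The gene sty encodes Sprouty, an intracellular antagonist of receptor tyrosine kinase signalling, and lies at chr3L:3401153-3424935 on the minus strand. Its 1 conservative peak, chr3L:3411846-3412021, had its summit in an intron of 11882 bp, 6033 bp downstream of the nearer of 2 TSSs, and ranked 39.1% from the top. The own lists held it at 46.1%, 59.5%, 67.8% and 70.3% in replicates 1 to 4, a mean of 60.9% ± 10.9 (SD, n = 4). The own summits lay within 111 bp of each other. The microRNA gene mir-2282, at chr3L:3412145-3412251 on the same strand as sty, stood 217 bp from the conservative summit. The window chr3L:3411878-3411978 is shown as the second intronic summit found in every replicate, with the central 11 bases in capitals.
sty intronic summit: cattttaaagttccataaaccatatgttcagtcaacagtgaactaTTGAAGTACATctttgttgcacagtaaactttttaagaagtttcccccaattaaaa
Like the summits of Krn and of the stronger ru peak, it is rich in A and T, with 31 of 101 bases G or C. This was not limited to peaks found in every replicate. The G and C content was 25.7% at Egfr and 29.7% at the summit upstream of the first TSS of pnt. Other summits were higher, up to 57.4% at the tRNA summit of ru.

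The gene aos encodes Argos, the secreted inhibitor of Spitz, and lies at chr3L:16470386-16483650 on the minus strand. It had a peak in 1 of the 11 thresholded lists only, the series-level list of 6220 peaks, which held 3. Those were an intronic summit 3075 bp from the TSS at 80.7% from the top, a summit in the 5′ untranslated region 343 bp from the TSS at 81.1%, and one in coding sequence 636 bp from the TSS at 96.5%. In the replicates' ranked lists the best candidates of aos scored 215, 433, 157 and 549. They lay up to 11240 bp apart, so the replicates did not share a best place.

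**Figure D3:**
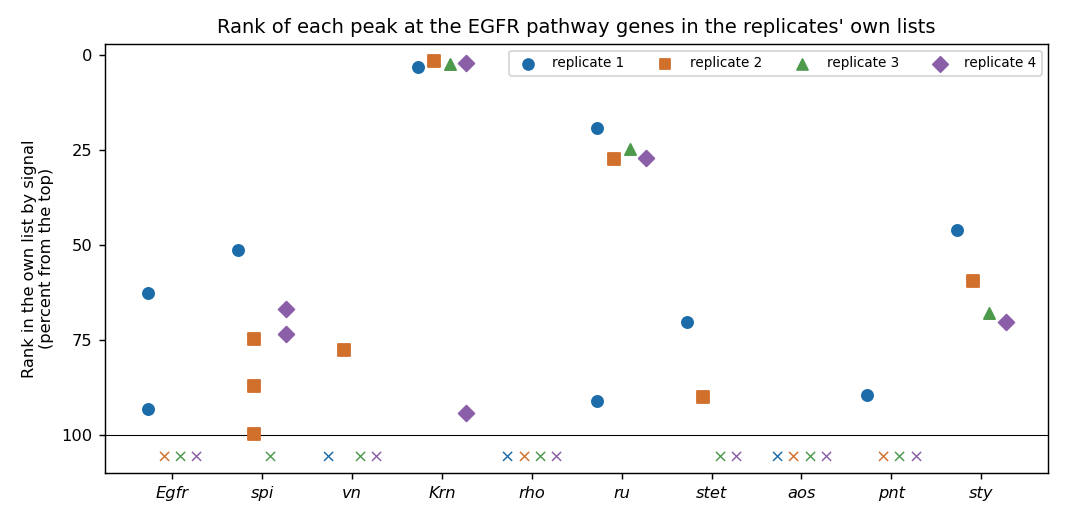
Rank by signal, as percent from the top of the replicate's own list (vertical axis, 0 at the top), of every peak at the 10 pathway genes in replicates 1 to 4. A cross under the line at 100 marks a replicate with no peak. Krn lies between 1.47% and 3.19% apart from 1 weak second summit in replicate 4, ru between 19.1% and 27.3% apart from its tRNA peak in replicate 1, and sty between 46.1% and 70.3%.

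Set side by side, the 3 genes with a peak in every own list kept the same order in each replicate. Krn stood highest, ru next and sty lowest, and the ranges of these peaks over the replicates did not overlap. That order holds for the signal alone: by the deposited −log10 q, Krn and ru were tied at the highest value of every own list, each with a mean rank of 23.1%, and sty was tied with them in replicate 1. The upstream peak of spi, between 51.2% and 74.8%, overlapped the range of sty. In the conservative list the 3 peaks at Krn, ru and sty also differed from the others in width. They spanned 665, 371 and 176 bp, whereas all 14 other conservative peaks of the pathway spanned 596 bp, a width shared by 2574 of the 5203 conservative peaks. For sty this did not hold in the own lists. There its peak spanned 520, 524, 404 and 480 bp in replicates 1 to 4, the most common width of each list. The 10 peaks that overlapped another peak of the same gene formed 5 pairs at spi, vn, stet and pnt, with 2 pairs at pnt. Without the share over all conservative peaks, this cannot be called particular to the pathway genes.

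**Figure D4:**
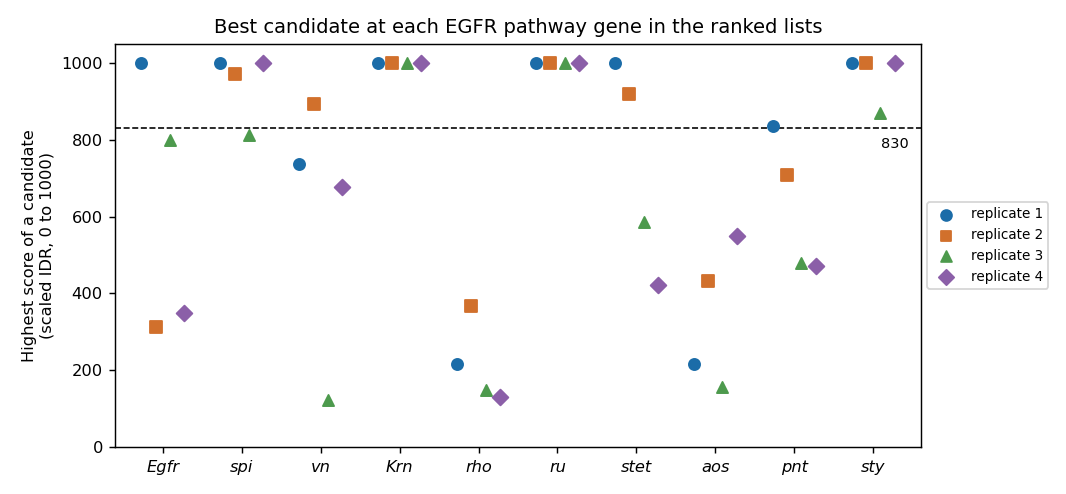
Highest score (scaled IDR, at most 1000) of any candidate peak at each pathway gene in the ranked list of each replicate. The dashed line is the threshold of 830. All 4 replicates lie above it at Krn, ru and sty, and all 4 below it at rho and aos.

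The ranked lists, which also hold candidates that failed the threshold, gave each pathway gene a value in each replicate. They held between 167 and 215 candidates at the 10 genes. The median of the 10 best scores was 1000, 906.5, 693.5 and 613.5 in replicates 1 to 4, against 455.5, 522.5, 179 and 239 over all genes with a candidate. The pathway genes are longer, so more candidates fall to each, and the part of length in this difference was not tested. The best scores of Egfr, vn and stet had the widest spread between replicates. For Egfr the mean was 616 ± 339, for vn 608 ± 337 and for stet 732 ± 273 (SD, n = 4 each), so their order among each other does not exceed the spread. The spread was next widest for aos, at 339 ± 184, and pnt, at 624 ± 179 (SD, n = 4 each). These are best scores of a gene, not scores of 1 peak. The best candidates of stet lay within 120 bp of each other over the replicates. Those of Egfr, vn, aos and pnt lay up to 34062, 17217, 11240 and 54837 bp apart. For Egfr, vn, aos and pnt the spread thus covers different sites as well as different replicates.

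The 7 thresholded series-level lists differed at the pathway genes. Krn, Egfr, spi, ru, stet and sty had a peak in all 7, vn in 4, pnt in 4, aos in 1 and rho in none. The lists held peaks at 6 to 9 of the 10 genes, and the share of all genes with a peak was between 32.3% and 45.1%. The peaks of pnt numbered 5, 5, 4 and 3 in the lists that held any and 0 in the other 3.

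**Figure D5:**
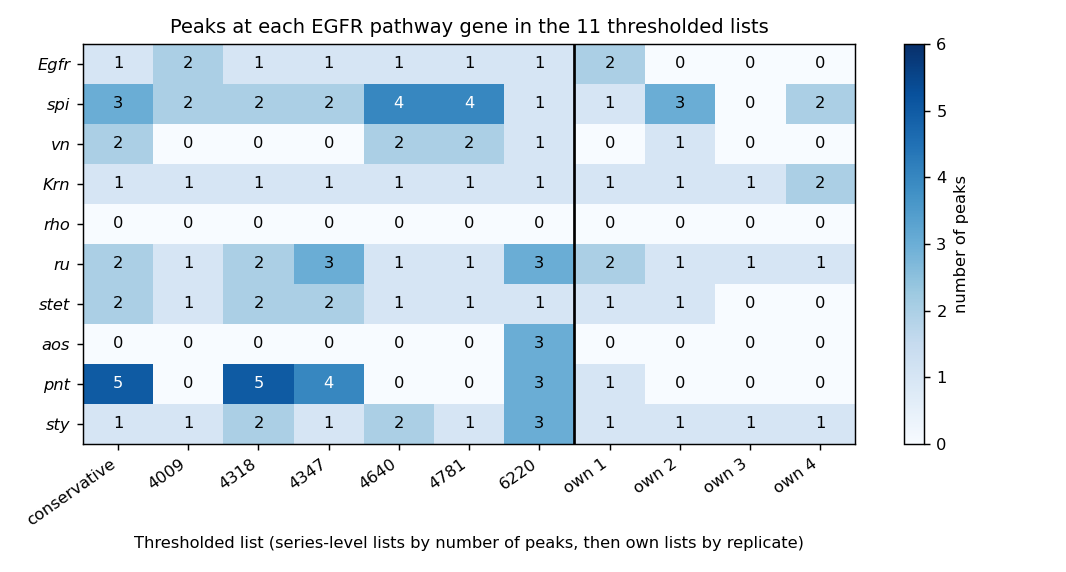
Number of peaks at each pathway gene in the 7 series-level thresholded lists, with the conservative list first and the others named by their number of peaks on the nuclear arms, and in the own lists of replicates 1 to 4 right of the line. Krn, ru and sty have at least 1 peak in every column and rho has 0 throughout.

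Of 7 motifs searched within 50 bp of the summits on both strands, 3 were found at a pathway gene, each at 1 of 17 summits. The homeodomain core TAATTA was in none of the 17 windows, against 7.23% of all conservative windows. TATCGATA, bound by the promoter factor DREF, and CGATAT, the site of the insulator factor BEAF-32, were both at the Egfr summit, and were found in 11.7% and 16.1% of all windows. These 2 motifs can overlap in the letters CGATA. The ETS core CCGGAA, shared by ETS factors such as Pointed, was in the tRNA window of ru and in 2.36% of all windows. At ru it lay inside the tRNA gene, which has 9 exact copies in the genome. The count of CCGGAA depended on the window. Within 100 bp of the summit it was at 4 of the 17, at Egfr, ru, spi and stet, against 4.88% of all windows. The Trithorax-like motif GAGAGAG, the M1BP motif GGTCACAC and the Zelda motif CAGGTAG were at none, against 3.92%, 2.73% and 0.442% of all windows. The median G and C content of the 17 windows was 38.6%, from 21.8% at Krn to 57.4% at the tRNA summit of ru, against a median of 40.6% over all conservative windows.

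Further genes of the pathway, a list of 26, held a conservative summit in 12 cases, close to the 40.0% of all genes, and in their own promoter in 8, close to the 31.1% of all genes. In every own list 6 of the 26 had a peak, against 21.9% of all genes. The 6 were cnk, S, Shc, dos, Spred and Raf. The strongest peaks of cnk, a scaffold of Raf activation, and of S, which encodes the Spitz trafficking factor Star, ranked 4.02% and 6.65% from the top, below only Krn among the pathway genes. In the own lists they ranked 7.19% ± 2.30 and 10.6% ± 1.3 from the top (SD, n = 4 each). Both lay nearest to another gene, l(2)k01209 for cnk and ast for S. The peak of Shc, an adaptor protein, was nearest to Atat and ranked 8.11%, and that of Spred was in the promoter of BEAF-32, 1435 bp upstream of Spred, at 32.6%. The scaffold gene dos at 16.5%, the repressor gene cic at 34.0%, the kinase gene Raf at 39.5% and RasGAP1 at 49.7% had their strongest summit nearest to their own TSS. Ras85D, Dsor1 and rl, which encode the fly Ras, MEK and MAP kinase, were among the 14 genes with no conservative summit, and are named after their values were seen.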

How the data were processed

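ChIP-seq of Dll-eGFP was analysed from 22 deposited peak lists, with 1 ranked and 1 thresholded list for each of 4 replicates and 7 of each kind for the series. The sources used here do not give the aligner or the peak caller. The signal is the authors' deposited peak signal, of unstated unit and normalization, and was ranked only within a list. The deposited score is a scaled IDR, and the deposited −log10 columns hold q values and global IDR. Thresholded lists stop at a score of 830. Another 14 columns with per-replicate signal but no sample name were not used. The lists carry no reads, which leaves the depth of each sample unknown. The spread over the 4 replicates, which the labels call biological without naming separate cultures or collections, is the measure of precision.

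Coordinates are dm6, 1-based. Genes came from Ensembl release 115 (BDGP6.54) and sequences from RefSeq. Each deposited row counted as 1 peak, and overlap meant at least 1 bp. Classes followed the order promoter, 5′ UTR, coding, 3′ UTR, other exon, intron. No comparison was tested. Counts of genes and peaks in the conservative and own lists stand beside the share over all genes or peaks, except for overlapping pairs and the alternatives. Values of the 4 replicates were screened with Dixon's criterion. The 10 genes, the 26 further genes and the motifs were chosen with earlier results of these data known. Named were the 10 genes with each conservative peak, up to 8 further genes by their strongest peak, and the gene of the nearest TSS, and 3 further genes with no peak outside this rule. Sequences were those of up to 8 summits off arm 2R, which leaves out Egfr. They were taken by most own lists and then by signal, less 1 window in a UTR. The tRNA window of ru was added outside this rule. Of the 26 further genes, 2 were matched through older symbols. Alternatives were other lists, a stricter signal threshold, merged regions, other assignment and overlap rules, other promoter and motif windows, and replicates left out. Scripts used Python 3.11.15 and matplotlib 3.10.9, and on simulated data assigned 200 of 200 planted summits to their gene.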

Additional observations from a re-analysis of the deposited data

Results flagged for a closer look

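The score of the best candidate at spi in replicate 3 was 813, set apart from 1000, 971 and 1000 in replicates 1, 2 and 4 by a gap of 0.845 of their whole range, beyond Dixon's 95% critical value for 4 samples. These 4 scores belong to different sites. The best candidate was at the upstream promoter in replicates 1 and 2, and at the internal pair in replicates 3 and 4. Candidates at the upstream promoter scored 1000, 971, 623 and 830 in replicates 1 to 4. Those at the internal pair scored 589, 833, 813 and 1000, so replicate 3 was not the lowest there. The best score at sty in replicate 3 was 871, against 1000 in each other replicate. The score cannot exceed 1000. At sty the other 3 values are tied at that ceiling, so the gap fills the whole range whatever the fourth value is, and at spi 2 values are at the ceiling. The usual rate of about 1 in 20 sets by chance therefore does not apply to these scores, and both are given as values only. Replicate 3 also has the shortest own list, 2523 peaks. Of the sets examined, 13 had a range, and the scores of Krn and ru, all at 1000, had none.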

How the results depend on the processing

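Of 102 alternatives, 81 left their value within 1.5 times the reported count or within 1 SD of the reported mean. Restricting the conservative list to its upper 50% by signal left 4 pathway genes with a peak, 2 with a promoter peak, 2 intronic peaks and 4 peaks in all, by its own construction. The list of 4009 peaks gave 3 genes with a promoter peak, 4 intronic peaks and 8 peaks in all. The list of 4640 gave 5 intronic peaks, and that of 4781 gave 4 intronic peaks and 11 peaks in all. Assignment by nearest TSS alone left 3 genes with a promoter peak, since the summits at Egfr and Krn are nearest to another gene. Promoters reaching 1000 bp to either side left 5 intronic peaks, at 3 genes; the count of genes was added after the values were seen. At a score of at least 540 in the ranked lists, 4 genes and 6 peaks were supported by every replicate. All the added peaks were at spi, and its overlapping pair rested on the same candidates. The share of all conservative peaks at that setting was not counted. Some stricter settings lowered the support. A reciprocal overlap of 50% left 2 genes and 2 peaks with support in every own list. The peak lost was that of sty, which spanned 176 bp in the conservative list and 404 to 524 bp in the own lists. The upper 50% of each own list also left 2 genes and 2 peaks. Requiring an own summit within 100 bp left the support at 3 genes and 3 peaks. Leaving out each replicate gave 3 to 4 genes with a peak in every remaining own list and 3 to 4 such peaks. Mean ranks without each replicate were 62.3% to 74.1% for spi, 1.92% to 2.49% for Krn, 23.6% to 26.3% for ru and 57.8% to 65.9% for sty, all within 1 SD. Ranks among merged regions put ru at 28.6%. Ranking by −log10 q put Krn and ru both at 23.1% and sty at 45.0%. Between 45.8% and 47.2% of each own list is tied at the highest q value, Krn and ru among them in every replicate and sty in replicate 1. With 25 bp on each side TATCGATA and CCGGAA were at 0 summits, and with 100 bp GAGAGAG was at 1 of 17 and CCGGAA at 4 of 17, against 7.42% and 4.88% of all summits. No paired analysis was possible because all samples belong to 1 group. Without read counts, a summit that is not listed, as at rho, is not shown to be absent.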
